A study of Mus musculus with 6 samples.

Results

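The cystatins and cathepsins examined here are 10 genes, the inhibitors and inhibitor-like genes Cst3, Cst6, Cst9 and Cst12 and the proteases Ctsb, Ctsd, Ctsh, Ctsk, Ctsl and Ctsz. The names, like the gene lists used below, were set with earlier results of these data known. Probe sets were then chosen by symbol: every probe set whose only gene symbol in the platform annotation was one of these names was taken. This gave 18 of the 45037 probe sets tested, and 10 of the 18193 genes with a probe set of their own. Expression was measured in whole testis of mice aged 5 weeks on Affymetrix arrays, with 3 arrays from Phf13 knockout mice and 3 from wild-type mice. No treatment, strain or other allele is named in the labels, and the sources used here do not say whether Phf13 was removed from all cells. The comparison asks how transcript levels differ in testis that lacks PHF13, a protein that reads methylated histone H3.

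Cathepsins are proteases of lysosomes that can also act outside the cell. Cathepsins B, H, K, L and Z are cysteine proteases of the papain family, whereas cathepsin D is an aspartic protease. Cystatins bind papain-type proteases and block them. In the seminiferous tubule the Sertoli cell secretes both cathepsin L and cystatin C and takes up residual bodies and dying germ cells into its lysosomes, and in the interstitium macrophages are rich in cathepsins. Some cystatin-related genes of the reproductive tract, the CRES subgroup, encode proteins that lack residues needed to inhibit papain-type proteases; Cst9, also called testatin, and Cst12, also called CRES3, belong to it.

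All values are log2 values deposited by the authors, so a difference of 1 is a doubling. Because the brightness of a probe set also depends on its probes, levels of different genes were not ranked against each other. Whole testis is mixed tissue, in which more cells of a type and more RNA per cell cannot be told apart. The 6 arrays fell into 2 sets by the 18S ribosomal RNA control probe sets: knockout 1, wild type 1 and wild type 2 had means from 12.03 to 12.67, and knockout 2, knockout 3 and wild type 3 had means from 9.69 to 10.71. Each set holds both genotypes, and values within the sets are given below. Phf13 stood at 6.71, 6.60 and 6.55 in knockout, against 9.55, 9.47 and 9.56 in wild type (limma adjusted p = 7.7e-06), so the target followed its label on all 6 arrays.

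Several cystatin genes are neighbours on mouse chromosome 2. In the order of the RefSeq gene table, 11 cystatin genes of this chromosome begin with Cstl1, Cst11, Cstdc1, Cst12, Cst8 and Cst13 and go on with Cst9, Cstdc2, Cst3, Cst10 and Cst7. The row lists cystatin genes only, so other genes may lie between them, and distances were not examined. The 250 bases before the annotated start of Cst12, Cst9 and Cst3 are shown because these 3 members lie in this row of genes and are described next to each other below. Those of Ctsd are shown beside them as the only member window outside its gene that held the letters CACGTG, the core of the element bound by TFEB-type factors in many lysosomal genes. The sequences are from RefSeq, build GRCm38.p6, written 5′ to 3′ on the strand of the gene, at chr2:148789115-148789364 (plus) for Cst12, chr2:148834897-148835146 (plus) for Cst9, chr2:148875513-148875762 (minus) for Cst3 and chr7:142387828-142388077 (minus) for Ctsd. Capitals mark CACGTG, or GGGCGG (a GC box) on either strand.
Cst12: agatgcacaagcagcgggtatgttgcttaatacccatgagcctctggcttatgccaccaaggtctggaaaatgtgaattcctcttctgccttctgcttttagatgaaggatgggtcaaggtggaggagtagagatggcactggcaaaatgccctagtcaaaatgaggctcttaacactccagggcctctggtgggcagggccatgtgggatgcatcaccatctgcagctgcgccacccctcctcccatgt
Cst9: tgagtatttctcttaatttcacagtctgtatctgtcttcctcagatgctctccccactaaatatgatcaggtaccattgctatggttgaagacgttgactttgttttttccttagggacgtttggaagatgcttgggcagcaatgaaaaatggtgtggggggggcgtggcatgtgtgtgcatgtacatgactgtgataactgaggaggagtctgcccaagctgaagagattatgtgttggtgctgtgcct
Cst3: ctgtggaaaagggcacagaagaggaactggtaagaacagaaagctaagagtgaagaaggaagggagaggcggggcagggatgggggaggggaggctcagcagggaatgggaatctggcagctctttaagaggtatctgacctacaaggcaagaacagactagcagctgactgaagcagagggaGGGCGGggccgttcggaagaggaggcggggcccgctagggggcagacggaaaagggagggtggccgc
Ctsd: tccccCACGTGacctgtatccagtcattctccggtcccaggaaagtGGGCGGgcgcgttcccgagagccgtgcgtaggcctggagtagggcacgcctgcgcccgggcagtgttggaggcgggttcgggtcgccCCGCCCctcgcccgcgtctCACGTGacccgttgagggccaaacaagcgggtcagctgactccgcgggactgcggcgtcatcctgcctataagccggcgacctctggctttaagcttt
Of the 10 members, 7 had a window in the table, and 6 of these windows lay outside the gene. CACGTG was present in 1 of the 6, GGGCGG in 3, and the TATA box letters TATAAA in 0. Among all 32851 windows of the same length, searched on both strands, 6.02% held CACGTG, 32.7% held GGGCGG and 12.4% held TATAAA. The Cst12 and Cst9 windows held none of the 3, the Cst3 window held GGGCGG once, and the Ctsd window held CACGTG and GGGCGG 2 times each. A match is only a description of these letters.

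Of the 10 genes, the 2 CRES-type cystatins Cst12 and Cst9 and the protease genes Ctsl and Ctsd were higher in every knockout array than in any wild-type array, by 0.16 to 0.58 on the log2 scale. No member passed the threshold over the whole array. Of the 18 probe sets, 0 had a limma adjusted p under 0.05, where 0.0999% of all probe sets passed. With an unadjusted p below 0.05, 3 were higher in knockout and 0 lower, against 6.81% and 8.31% of all probe sets. By the brightest probe set of each gene, 4 of 10 genes had knockout arrays all above wild-type arrays and 0 had them all below, where over all 18193 genes these shares were 9.92% and 13.5%. The differences of the 10 genes had a median of 0.13, with 8 above 0 and 2 below, against a median of 0.01 over all genes. As the members were chosen with earlier results of these data known, these counts are a description only.

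**Figure D1:**
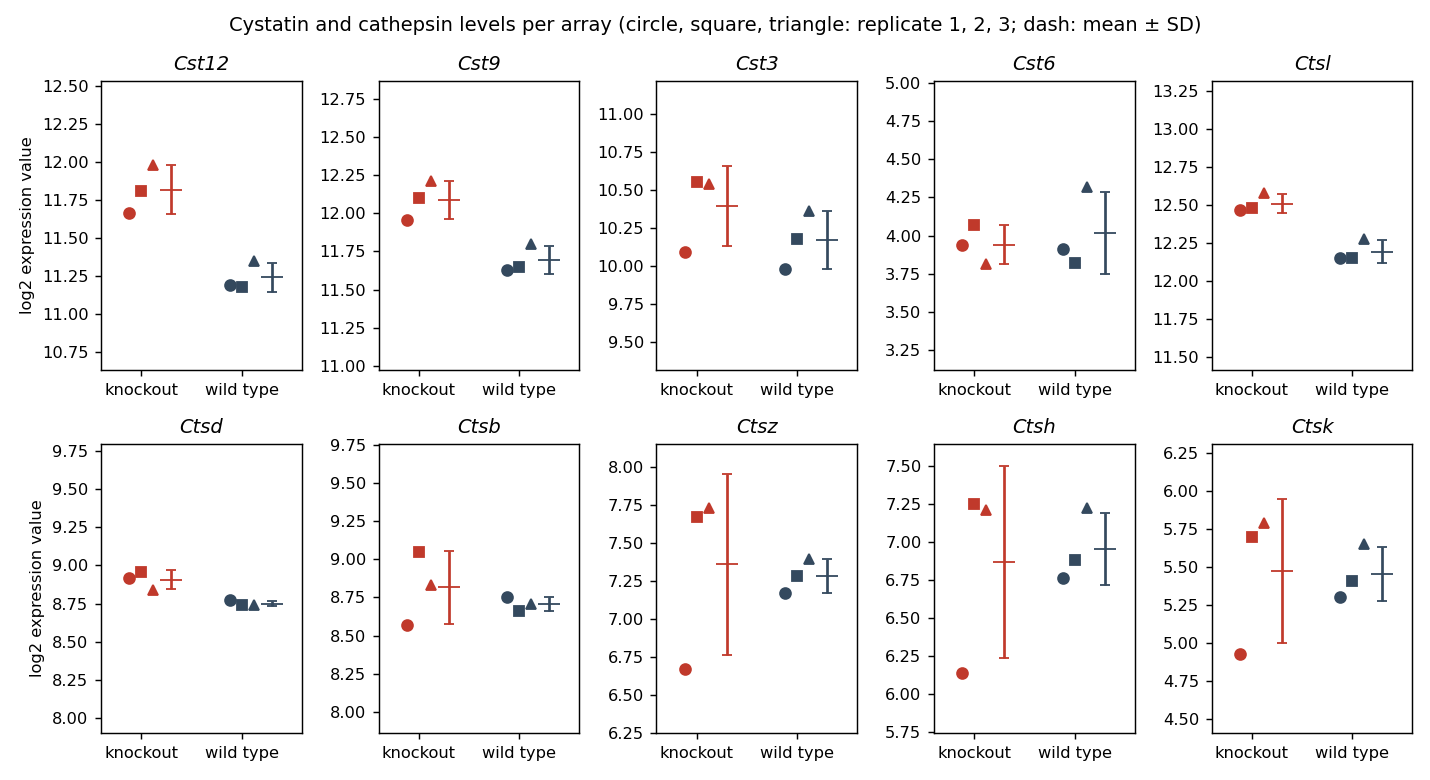
Log2 expression values of the brightest probe set of each of the 10 genes, with 3 knockout arrays (red) to the left of 3 wild-type arrays (dark blue); each panel spans the same number of log2 units, and the dash with bars is the mean ± SD. Cst12, Cst9, Ctsl and Ctsd do not overlap between genotypes, and knockout 1 (red circle) is the lowest array for Ctsb, Ctsz, Ctsh and Ctsk.

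Cst12 had the largest difference of the 10 genes. Its only probe set read 11.66, 11.81 and 11.98 in knockout, against 11.19, 11.18 and 11.35 in wild type. The groups did not overlap, and the lowest knockout array was above the highest wild-type array by more than the spread of the wild-type arrays. The mean was 11.82 ± 0.16 in knockout and 11.24 ± 0.10 in wild type (SD, n = 3 each), a log2 difference of 0.58 (SE 0.11) or 1.49-fold, with a 95% interval of 1.26 to 1.77. The unadjusted p was 0.00061 and the limma adjusted p was 0.144, so the difference did not pass over all probe sets. It did pass without wild type 3 (limma adjusted p = 0.0352), with trend and robust moderation (limma adjusted p = 0.037) and with array weights (limma adjusted p = 0.0181). Those settings also called more of all probe sets than the main fit, which called 25 higher and 20 lower. Without wild type 3 the counts were 178 and 998, and with trend and robust moderation 66 and 44. With array weights they were 1654 and 1532. Inside the set of arrays with high 18S signal the Cst12 difference was 0.48 (1 knockout and 2 wild-type arrays), and inside the other it was 0.55 (2 knockout arrays and 1 wild-type array).

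Cst9 showed nearly the same order of arrays at a smaller size, with wild type 1 and wild type 2 exchanged. It read 11.96, 12.10 and 12.21 in knockout, against 11.63, 11.65 and 11.80 in wild type. Again no knockout array fell among the wild-type arrays. Its difference on the log2 scale was 0.40 (SE 0.10), or 1.32-fold with a 95% interval of 1.12 to 1.54 (limma adjusted p = 0.198, and 0.0271 with array weights). With array weights 1654 of all probe sets were called higher and 1532 lower. The Cst9 difference was 0.32 inside the high-18S set and 0.36 inside the low-18S set.

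Cst3 encodes cystatin C, the broadly expressed secreted inhibitor of papain-type cathepsins. It read 10.09, 10.55 and 10.54 in knockout, against 9.98, 10.18 and 10.36 in wild type. The groups overlapped, because knockout 1 lay between wild type 1 and wild type 2. The log2 difference was 0.22 (SE 0.15), with a 95% interval from -0.13 to 0.57 (limma adjusted p = 0.526). It was 0.01 inside the high-18S set and 0.19 inside the low-18S set, and 0.37 without knockout 1 (limma adjusted p = 0.191).

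Cst6 encodes cystatin E/M, an inhibitor of legumain and of some cathepsins. It was dim, at 3.94, 4.07 and 3.81 in knockout, against 3.91, 3.82 and 4.32 in wild type, where the lower quartile of the arrays lay between 3.66 and 3.75. Wild type 3 was the highest of the 6 arrays and the others lay close together. On the log2 scale the difference was -0.08 (SE 0.14), with a 95% interval from -0.40 to 0.25 (limma adjusted p = 0.836).

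The row of cystatin genes on chromosome 2 held no gene past the adjusted threshold. Of its 11 genes 9 were measured, 7 with a positive and 2 with a negative difference. With an unadjusted p below 0.05, 3 of the 9 were higher and 0 lower, where 8.58% and 8.72% of all genes were, and 0 had a limma adjusted p under 0.05. The third, beside Cst12 and Cst9, was Cstdc1, which stands next to Cst12 in the row and was named here after its values were seen. It read 8.84, 9.28 and 9.55 in knockout, against 8.42, 8.69 and 8.87 in wild type, a log2 difference of 0.56 (SE 0.19, limma adjusted p = 0.25). Its groups overlapped by knockout 1 alone. Cst7, at the end of the row, was dim, at 3.90 ± 0.09 in knockout and 4.03 ± 0.03 in wild type (SD, n = 3 each). Its knockout arrays all lay below its wild-type arrays, by a narrow gap, with a log2 difference of -0.13 (SE 0.09, limma adjusted p = 0.513). Cst13, between Cst12 and Cst9, differed by 0.22 (SE 0.15), and Cst11, an epididymal cystatin, was dim in both genotypes at 2.38 ± 0.06 in knockout and 2.50 ± 0.07 in wild type (SD, n = 3 each).

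Among the proteases, Ctsl and Ctsd were the pair whose genotypes did not overlap. Ctsl encodes cathepsin L, which Sertoli cells make in a cycle with the stages of the seminiferous epithelium. Its bright probe set read 12.47, 12.48 and 12.58 in knockout, against 12.15, 12.15 and 12.28 in wild type. The arrays of each genotype lay closer to each other than the gap between the means, which was 0.32 (SE 0.09), or 1.24-fold with a 95% interval of 1.08 to 1.43. The unadjusted p was 0.00643 and the limma adjusted p was 0.214. It was 0.0398 with array weights, which called 1654 of all probe sets higher and 1532 lower. Inside the sets of arrays the difference was 0.32 (high 18S) and 0.25 (low 18S). The other Ctsl probe set was dim and its groups overlapped, with a mean of 4.65 ± 0.22 in knockout and 4.40 ± 0.31 in wild type (SD, n = 3 each), a difference of 0.24 (SE 0.17).

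Ctsd encodes cathepsin D, the aspartic protease that cystatins do not block. It read 8.92, 8.96 and 8.84 in knockout, against 8.77, 8.74 and 8.74 in wild type. The groups were apart by a narrow gap, and the wild-type arrays were nearly equal. The log2 difference was 0.16 (SE 0.08), with a 95% interval from -0.03 to 0.35 and an unadjusted p of 0.094 (limma adjusted p = 0.411). It was 0.17 in the high-18S and 0.16 in the low-18S set.

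The remaining cysteine cathepsins varied more between knockout arrays than between genotypes. Ctsb, a widely expressed cathepsin of the papain family, read 8.57, 9.05 and 8.83 in knockout, against 8.75, 8.66 and 8.71 in wild type. The wild-type arrays lay inside the range of the knockout arrays. Genotype means differed by 0.11 (SE 0.13, limma adjusted p = 0.716), and its 4 other probe sets differed by 0.02 to 0.10. All 5 were positive, but inside the high-18S set 4 of them were negative.

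Ctsz encodes cathepsin Z, a carboxypeptidase known from macrophages. It read 6.67, 7.67 and 7.73 in knockout, against 7.17, 7.28 and 7.39 in wild type. Knockout 1 was the lowest array and knockout 2 and 3 were the highest, so that the genotype means nearly coincided, with a log2 difference of 0.08 (SE 0.25, limma adjusted p = 0.917). Within the sets of arrays the sign turned, from -0.56 in the high-18S set (1 knockout and 2 wild-type arrays) to 0.31 in the low-18S set. Without knockout 1 the difference was 0.42 (limma adjusted p = 0.105). Its other probe sets, some of whose probes may also detect other transcripts, differed by 0.13 and -0.08.

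Ctsh, whose product is a cathepsin with aminopeptidase activity, read 6.14, 7.25 and 7.21 in knockout, against 6.76, 6.88 and 7.22 in wild type. The log2 difference was -0.09 (SE 0.28, limma adjusted p = 0.914), and that of its other probe set was -0.21 (SE 0.19). Again knockout 1 stood below every other array. The Ctsh difference was -0.68 in the high-18S set, 0.01 in the low-18S set and 0.28 without knockout 1 (limma adjusted p = 0.37).

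Ctsk, best known as the collagen-degrading cathepsin of osteoclasts, read 4.93, 5.70 and 5.79 in knockout, against 5.30, 5.41 and 5.65 in wild type. Its order of arrays was that of Ctsz. The log2 difference was 0.02 (SE 0.22, limma adjusted p = 0.977), with -0.43 in the high-18S set and 0.10 in the low-18S set (0.29 without knockout 1, limma adjusted p = 0.276).

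**Figure D2:**
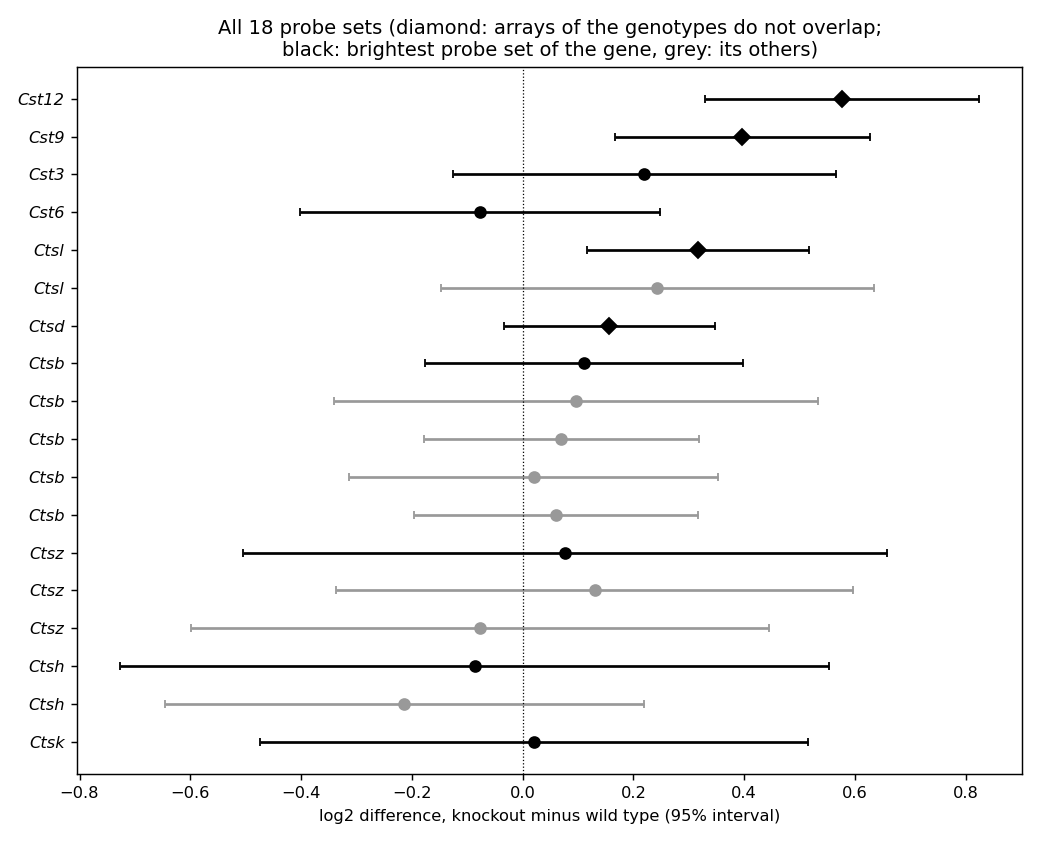
Log2 differences between knockout and wild type with 95% intervals of the limma fit for all 18 probe sets, black for the brightest probe set of a gene and grey for its others; diamonds mark probe sets whose genotypes do not overlap. The intervals of Cst12, Cst9 and the bright Ctsl probe set lie above 0, and those of the other 15 cross it.

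Markers of the cell types that hold these transcripts were set beside them. Sertoli cell markers differed in the direction of Cst12, Cst9 and Ctsl: of 16 measured, 15 were positive and 1 negative, 10 were higher and 0 lower with an unadjusted p below 0.05, against 8.58% and 8.72% of all genes, and 0 passed after adjustment. Their median difference was 0.40. Vim, which other somatic cells also express, differed by 0.54 (SE 0.11) and the inhibin subunit gene Inhbb by 0.41 (SE 0.08). The receptor gene Fshr and Aard each differed by 0.45 (SE 0.09). These genes had the smallest p of the list. Markers with an unadjusted p of 0.05 or more differed less. Wt1 differed by 0.21 (SE 0.10), and Dhh and Amh each by 0.18 (SE 0.09). Sox9 and Abcg2 each differed by 0.15 (SE 0.10) and Gata4 by -0.03 (SE 0.08). The mean of the Sertoli markers was 8.59, 8.69 and 8.74 in knockout, against 8.30, 8.33 and 8.35 in wild type. Taken relative to this mean on each array, Cst12 differed by 0.23, Cst9 by 0.05 and Ctsl by -0.03, while Ctsd differed by -0.19 and Cst3 by -0.13. The other 5 genes differed by -0.24 to -0.44 on this scale, which was chosen after the values were seen. Several of these values rest on knockout 1: without it Ctsz differed by 0.03, Cst3 by -0.02, Ctsk by -0.10, Ctsh by -0.11 and Ctsb by -0.16, while Cst12 differed by 0.26, Cst9 by 0.07, Ctsl by -0.05, Ctsd by -0.24 and Cst6 by -0.47. How far the amount of Sertoli RNA enters the differences of Cst12, Cst9 and Ctsl was not tested further.

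Leukocyte markers were read beside Ctsz, Ctsh and Ctsk. The mean of 17 macrophage and leukocyte markers was 6.31, 6.80 and 6.96 in knockout, against 6.42, 6.34 and 6.58 in wild type. Knockout 1 was the lowest, just below wild type 2, and knockout 2 and 3 were the highest, as for Ctsz and Ctsk. For Ctsh knockout 1 was also the lowest, but wild type 3 lay just above knockout 3. The differences of all 17 were positive, and their median was 0.20, but 0 had an unadjusted p under 0.05, and 1 marker lay below the mean lower quartile of the arrays. The difference of their mean was -0.07 in the high-18S set, 0.29 in the low-18S set and 0.43 without knockout 1. That dim marker was the T cell receptor complex gene Cd3g, which differed by 0.22 (SE 0.10) and had knockout 1 as its highest array, at 3.48. The leukocyte phosphatase gene Ptprc differed by 0.44 (SE 0.21), and its lowest array was wild type 3. Knockout 1 was the lowest of the 6 arrays in 10 of 11 probe sets of Ctsb, Ctsh, Ctsk and Ctsz, in 0 of the 7 other member probe sets, and in 19.7% of all probe sets. By the brightest probe set of each gene it was the lowest in 6 of the 17 leukocyte markers, in 1 of the 16 Sertoli markers and in 24.1% of all genes. These groups of cathepsins were formed after the values were seen, and what sets knockout 1 apart was not tested.

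**Figure D3:**
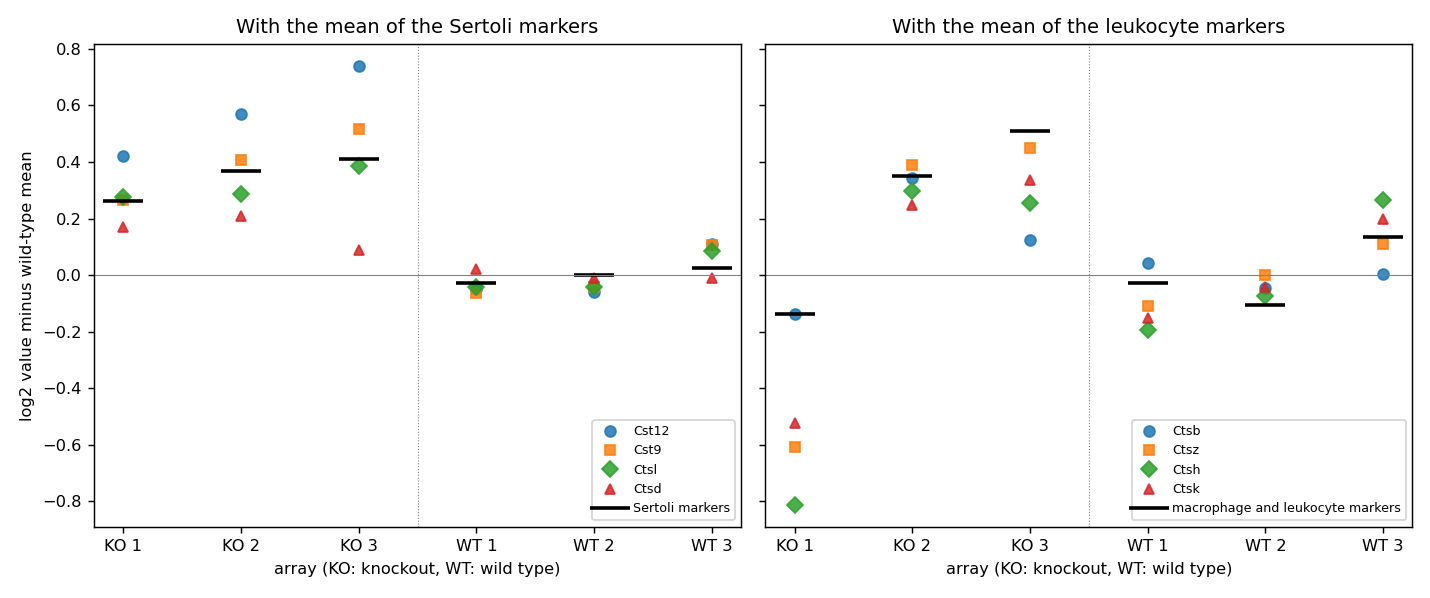
Log2 values on each array minus the wild-type mean of the same gene, knockout arrays left of wild-type arrays; the black dash is the mean of a marker list on the same scale. On the left Cst12, Cst9, Ctsl and Ctsd are above 0 in all 3 knockout arrays together with the Sertoli markers, and on the right Ctsz, Ctsh and Ctsk are below -0.4 in knockout 1 and above 0.2 in knockout 2 and 3.

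Markers of other cells of the sample had median differences of 0.40 (peritubular and stromal), 0.37 (fat), 0.28 (Leydig), 0.03 (epididymis), 0.02 (spermatid) and -0.13 (spermatocyte), and the counts below are of genes with an unadjusted p below 0.05, to be read against 8.58% higher and 8.72% lower among all genes. Of 5 Leydig cell markers 2 were higher, Hsd3b1 at 0.56 (SE 0.12) and Star at 0.49 (SE 0.18). Of 9 peritubular and stromal markers 4 were higher, with Dcn at 0.95 (SE 0.17) and Acta2 at 0.49 (SE 0.10). Of the 4 measured fat markers 3 were higher, with Fabp4 at 2.21 (SE 0.53) and Retn at 0.34 (SE 0.09). The wild-type arrays of Fabp4 ranged from 4.23 to 6.51. The remaining higher fat marker, 1 gene, lay below the mean lower quartile of the arrays. Of the 6 measured epididymis markers none was higher or lower, and 3 lay below the same quartile. Of 10 spermatocyte markers 4 were lower, with Aurkc at -0.42 (SE 0.09). By sign 6 of the 10 were negative and 4 positive, from -0.42 to 0.12. Of the 10 spermatid markers none was higher or lower. None of these genes had a limma adjusted p under 0.05. In the high-18S and low-18S sets the list means differed by 0.03 and 0.94 for peritubular and stromal markers and by 0.04 and 0.39 for Leydig markers. They differed by 0.75 and 0.58 for fat, 0.21 and -0.14 for epididymis, 0.01 and -0.02 for spermatid and -0.12 and -0.15 for spermatocyte markers. For the Sertoli markers these values were 0.28 and 0.37.

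Cystatins were next set against the cysteine cathepsins among the members. Whether each pair is an inhibitor and its target was not examined. For Cst3 and Cst6, the log2 ratio of inhibitor to protease was taken on each array against Ctsb, Ctsh, Ctsk, Ctsl and Ctsz, giving 10 pairs, and its change was tested with an exact two-sided permutation test, which for 3 against 3 cannot go below p = 0.1. No pair passed, with adjusted p-values from 0.667 to 1. The change was -0.39 for Cst6 against Ctsl, where the ratios, relative to their wild-type mean, were -0.35, -0.23 and -0.59 in knockout, against -0.06, -0.15 and 0.22 in wild type. These groups did not overlap (exact permutation p = 0.1), and the Cst6 probe set is dim. Most of this change is the Ctsl difference of 0.32 given above, as Cst6 alone differed by -0.08.

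The ratios of Cst3 gave no common direction. Against Ctsl the change was -0.10 (exact permutation p = 0.6), and against Ctsb it was 0.11 (exact permutation p = 0.6). Against Ctsh it was 0.31 (exact permutation p = 0.2), with 0.73, 0.08 and 0.11 in knockout, against 0.00, 0.08 and -0.08 in wild type. That value rests on knockout 1, without which it was 0.10. The changes against Ctsk and Ctsz were 0.20 and 0.14, and without knockout 1 they were 0.08 and -0.05. The 4 other ratios of Cst6 changed by -0.19 to 0.01, with exact permutation p-values from 0.5 to 1. The change of -0.19, against Ctsb, rests on wild type 3, without which it was -0.037.

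**Figure D4:**
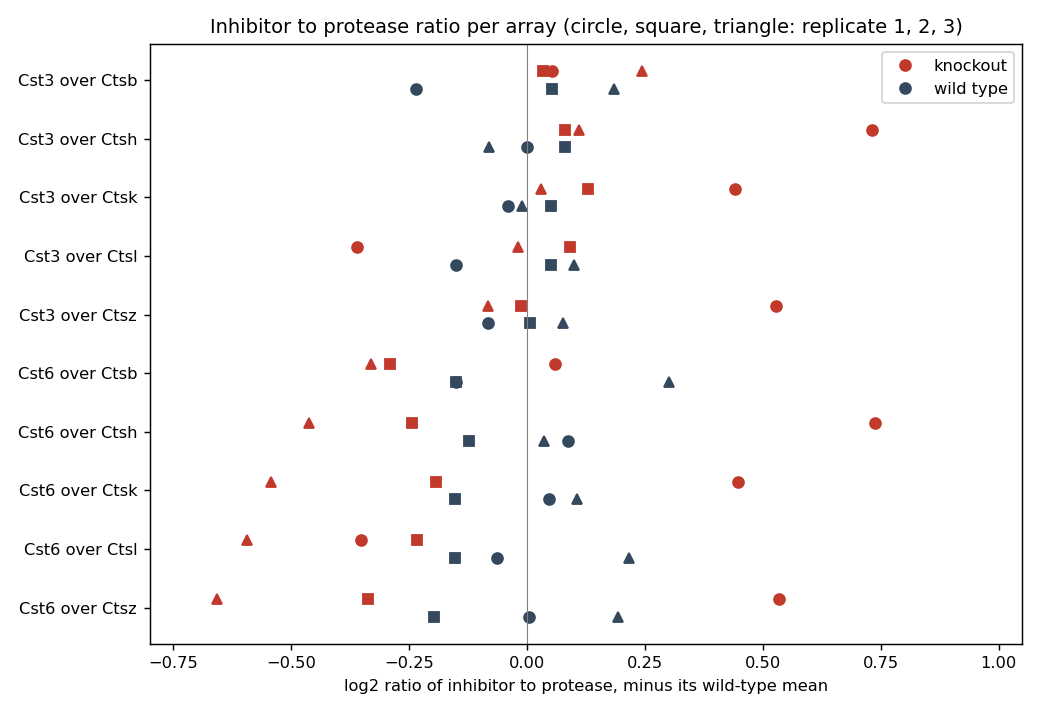
Log2 ratio of inhibitor to protease on each array, minus the wild-type mean of the ratio, for 10 pairs, with knockout arrays (red) drawn above wild-type arrays (dark blue). Knockout 1 (red circle) lies at 0.44 or more in the ratios to Ctsh, Ctsk and Ctsz, and the genotypes separate only for Cst6 over Ctsl.

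Among the listed genes in the rest of both families 2 had an unadjusted p below 0.05, Fetub and Ctso. Over all genes 8.58% were higher and 8.72% lower by this measure. Cstdc1, described above with an unadjusted p below 0.05, was not on these lists. Of 24 other cystatins and cystatin-like genes listed, 13 were measured by a probe set of their own, 7 of them below the mean lower quartile of the arrays. Their median difference was 0.08, with 1 higher, 0 lower and 12 at an unadjusted p of 0.05 or more. Fetub is a fetuin gene known from liver and stood at 3.65 ± 0.11 in knockout and 3.39 ± 0.03 in wild type (SD, n = 3 each). Cstb, the inhibitor that stays inside the cell, read 9.25, 9.70 and 9.75 in knockout, against 8.93, 9.37 and 9.29 in wild type, a difference of 0.37 (SE 0.16, limma adjusted p = 0.336). Its groups overlapped by knockout 1 alone. The dim stefin-like gene Stfa2l1 read 2.23, 2.13 and 2.18 in knockout, against 2.44, 2.30 and 2.32 in wild type. Its knockout arrays all lay below its wild-type arrays, as did those of Cst7, with a log2 difference of -0.17 (SE 0.09, limma adjusted p = 0.386). The fetuin gene Ahsg differed by 0.22 (SE 0.15), with overlapping groups.

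Of 21 other cathepsins and related genes, all measured, 10 lay below the mean lower quartile of the arrays. Their median difference was 0.12, with 1 higher, 0 lower and 20 at an unadjusted p of 0.05 or more. Ctso, a papain-type cathepsin, read 7.45, 7.77 and 7.80 in knockout, against 7.16, 7.35 and 7.34 in wild type. Its groups did not overlap, with a log2 difference of 0.39 (SE 0.12, limma adjusted p = 0.229). Ctse, an aspartic cathepsin, differed by 0.27 (SE 0.13) and Cts6, a dim cathepsin gene, by 0.15 (SE 0.10), both with overlapping groups. Ctss, the cathepsin of antigen-presenting cells, read 7.27, 8.43 and 8.66 in knockout, against 7.36, 7.65 and 7.94 in wild type, so that knockout 1 was again the lowest array and its difference was 0.47 (SE 0.33). Legumain, the target of cystatin E/M encoded by Lgmn, differed by 0.13 (SE 0.11).

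Lysosomal and delivery genes were split. Of 30 measured, 7 were higher and 2 lower with an unadjusted p below 0.05, against 8.58% and 8.72% of all genes, 21 were at or above it, and 0 passed after adjustment. The median was 0.05. The acid lipase gene Lipa differed by 0.40 (SE 0.10), the tripeptidyl peptidase gene Tpp1 by 0.35 (SE 0.09), the acid ceramidase gene Asah1 by 0.37 (SE 0.11), and Scarb2, whose product carries glucocerebrosidase to lysosomes, by 0.35 (SE 0.11). By contrast Galc, which encodes galactosylceramidase, differed by -0.27 (SE 0.09). Limma adjusted p-values of these 5 ran from 0.19 to 0.253.

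Other proteases and inhibitors of the tubule had a median of 0.11 over 14 measured genes, with 2 higher, 1 lower and 11 at an unadjusted p of 0.05 or more (8.58% higher and 8.72% lower among all genes). Serpina5, a serpin that inhibits serine proteases in the reproductive tract, read 9.44, 9.39 and 9.24 in knockout, against 9.08, 8.90 and 8.80 in wild type. No array overlapped, with a difference of 0.43 (SE 0.11, limma adjusted p = 0.195). The metalloproteinase inhibitor gene Timp3 differed by 0.35 (SE 0.14) and the broad protease inhibitor gene A2m by -0.29 (SE 0.11). The plasminogen activator gene Plat, a product of Sertoli cells, differed by 0.30 (SE 0.14), with an unadjusted p of 0.0601.

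The genes whose values ran most like those of Cst9 and Cst12 over the 6 arrays were sought among 11699 genes brighter than the median. For Cst12 they were Dynlt3, Smpx, Asb9 and Cst9, with Pearson's r from 0.996 to 1.000, and for Cst9 they were Apoo, Smpx, Ctag2 and Dynlt3, with r from 0.997 to 0.999. Their log2 differences between knockout and wild type ran from 0.38 to 0.60, and 0 had a limma adjusted p under 0.05. With 6 arrays in 2 genotypes, an r of this size is a description only, chosen as the highest of many.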

How the data were processed

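The file holds log2 values per probe set for 6 whole-testis arrays. Per the submitters' processing notes, the authors made the deposited log2 values with Affymetrix Expression Console 1.4.1. That they are log2 follows from their range; the sources used here do not give the summarization or normalization. The labels do not say that replicates came from separate animals, so the spread behind each p-value may be technical. Only 3 arrays per genotype limit the precision.

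The 64 control probe sets were left out, and 45037 were fitted on genotype with lmFit and eBayes (limma 3.58.1, R 4.3.3), two-sided, with Benjamini-Hochberg adjustment over all and a threshold of 0.05. In the platform annotation 34945 probe sets had 1 symbol, 932 several and 9160 none, and genes were named only from the first kind. The RefSeq table of assembly GRCm38.p6 held 34741 of them by gene identifier and changed 0 symbols. The brightest probe set over all 6 arrays stood for a gene. All members were named, and of the other lists up to 6 genes with the smallest p, 4 for Sertoli markers and at most 2 for other markers. Lgmn, Cst11, Cstdc1 and the Sertoli markers with an unadjusted p of 0.05 or more fall outside this rule. They were chosen after their values were seen. Members and lists were chosen with earlier results of these data known. The fit was tested on simulated data.

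Arrays sharing a replicate number were not treated as pairs in the main fit. Between them, correlations of deviations from the genotype means were 0.26, 0.07 and 0.12. The knockout arrays closest to wild type 1, 2 and 3 by this measure were knockout 1, 2 and 2. With no reference for unpaired arrays, these values cannot decide whether the arrays were paired. Alternatives were blocks, filters, normalizations, moderation, weights and each array left out.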

Additional observations from a re-analysis of the deposited data

How the results depend on the processing

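For each member 14 or 15 alternatives were run, the filter on dim probe sets leaving Cst6 untested. Cst12, Cst9, Cst3, Ctsl and Ctsd were higher in knockout in all 15, with Cst12 from 0.50 to 0.66 (limma adjusted p from 0.0181 to 0.529), Cst9 from 0.34 to 0.46, Ctsl from 0.28 to 0.36, Ctsd from 0.13 to 0.21 and Cst3 from 0.067 with the title run block (0.098 with the 18S set block, 0.12 without wild type 1) to 0.37 without knockout 1. Cst12 passed the threshold in 3 of them (trend and robust moderation, array weights, and without wild type 3), and Cst9 and Ctsl in 1, array weights. Member probe sets called higher thus numbered 1 with trend and robust moderation, 3 with array weights and 0 to 1 with an array left out, and 0 were called lower throughout. Array weights gave knockout 1 the smallest weight, 0.383. Over all probe sets, 25 were higher and 20 lower; the replicate block gave 6 lower, the title run block 12 and 4, probe sets above the median 42 lower, trend and robust moderation 66 and 44, array weights 1654 and 1532, an adjusted p under 0.1 gave 48 and 52, and leaving out an array gave 8 to 178 higher (178 without wild type 3, 140 without knockout 1) and 4 to 998 lower (998 without wild type 3). The replicate numbers are no pairing in the labels; with them as a block 0 members passed.

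Signs turned for members near 0. Ctsk was -0.15 and Ctsz -0.084 with the title run block, and -0.17 and -0.12 with the 18S set block; with array weights Cst6 was 0.046 and Ctsh 0.22. Leaving out an array gave -0.18 to 0.075 for Cst6, -0.0067 to 0.23 for Ctsb, -0.28 to 0.28 for Ctsh, -0.14 to 0.29 for Ctsk and -0.11 to 0.42 for Ctsz. Among ratios, Cst3 over Ctsb was -0.026 with the title run block, Cst6 over Ctsk 0.013 with the 18S set block and Cst6 over Ctsh -0.016 after quantile normalization. Leaving out an array gave -0.0083 to 0.20 for Cst3 over Ctsb, -0.19 to 0.035 over Ctsl and -0.048 to 0.26 over Ctsz, and -0.35 to 0.25 for Cst6 over Ctsh, -0.37 to 0.13 over Ctsk and -0.50 to 0.10 over Ctsz. The cause of these changes was not tested. No background level of the arrays was used, so differences of dim probe sets such as Cst6 are uncertain.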
